A study of Mus musculus with 6 samples.

Results

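The Hedgehog pathway genes examined here are *Gli1*, *Gli2*, *Gli3*, *Ptch1*, *Smo*, *Sufu*, *Hhip*, *Gas1* and *Gpr161*, which encode receptors, modulators and transcription factors of the pathway. They were taken by gene name, and all 9 were found among the 20624 genes of the deposited table. The RNA came from mDCT15 cells, a mouse cell line of the distal convoluted tubule, with 3 samples of *Pkd1*-/- cells and 3 samples of wild type cells. The *Pkd1*-/- cells had been made by CRISPR-Cas9 editing, while the genotype field of the labels calls them a knockdown, and the number of clones behind them is not given in the sources used here. Both genotypes were grown in the same medium with fetal bovine serum, and no treatment is given. The quantity described is the authors' mean normalized count, a signal that averages the counts of all 6 samples after division by the size factor of each library. It carries no value of a single sample or genotype, no error and no depth per sample. The genotypes were therefore not compared here, and a level can come mainly from one of them.

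Hedgehog signaling runs through the primary cilium, the antenna-like organelle in which the polycystins are also found. A secreted ligand binds Patched, which then no longer holds back Smoothened, and Smoothened in turn changes how the GLI transcription factors are processed. Without ligand, GLI3 is mainly cut to a repressor and target genes stay low, whereas with ligand full-length GLI2 and GLI3 activate them. *Gli1*, *Ptch1* and *Hhip* are themselves classical targets, so that pathway activity raises an activator, a receptor and a ligand trap of the pathway itself. In the developing kidney the ligands come from epithelial cells and many of the responding cells are stromal.

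Promoter windows are shown for *Ptch1* and *Hhip*, classical targets of the pathway, and for *Gli3*, the GLI gene with the highest mean normalized count. Each is the RefSeq window of 250 bases before to 50 bases after a transcription start, read 5′ to 3′ on the strand of the gene. The windows were matched to GRCm39 at chr13:63713500-63713799 on the minus strand for *Ptch1*, at chr8:80784588-80784887 on the minus strand for *Hhip* and at chr13:15638058-15638357 on the plus strand for *Gli3*. Capitals mark the GC box GGGCGG on either strand, the element bound by SP factors.
Ptch1: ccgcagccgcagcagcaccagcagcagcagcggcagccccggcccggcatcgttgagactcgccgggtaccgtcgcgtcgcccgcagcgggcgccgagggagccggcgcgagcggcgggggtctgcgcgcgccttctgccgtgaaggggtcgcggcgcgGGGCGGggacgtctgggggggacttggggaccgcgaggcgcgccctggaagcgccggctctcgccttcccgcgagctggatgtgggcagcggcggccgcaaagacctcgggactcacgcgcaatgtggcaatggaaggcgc
Hhip: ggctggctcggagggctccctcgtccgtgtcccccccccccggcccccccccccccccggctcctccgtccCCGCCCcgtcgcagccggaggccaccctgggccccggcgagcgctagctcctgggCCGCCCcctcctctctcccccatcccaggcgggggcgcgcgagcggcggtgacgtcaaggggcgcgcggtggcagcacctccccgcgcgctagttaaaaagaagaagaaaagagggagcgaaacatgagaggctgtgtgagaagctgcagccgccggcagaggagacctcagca
Gli3: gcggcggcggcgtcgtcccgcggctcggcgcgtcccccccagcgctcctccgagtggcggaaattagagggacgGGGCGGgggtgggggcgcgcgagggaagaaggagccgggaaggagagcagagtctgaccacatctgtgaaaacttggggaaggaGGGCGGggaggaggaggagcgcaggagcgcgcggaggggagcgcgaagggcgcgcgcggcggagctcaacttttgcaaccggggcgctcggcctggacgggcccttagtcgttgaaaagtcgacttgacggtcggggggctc

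The GC box occurred once in the *Ptch1* window and at 2 places each in those of *Hhip* and *Gli3*. The RefSeq table, which is on GRCm38.p6, held 9 windows for 8 of the genes, with none for *Gli1*, and each matched its chromosome on GRCm39 at 1 place. *Gpr161* had 2 windows, both inside the gene as annotated on GRCm39. Those of *Gli2*, *Gli3* and *Ptch1* also lay inside their genes, and that of *Gas1* lay wholly before its annotated start. The *Ptch1* window spanned 63713500 to 63713799, while the gene, on the minus strand, begins at 63721412. Sequence at the annotated starts of *Ptch1*, *Gpr161*, *Gli2*, *Gli3* and *Gas1* was not examined. Of the 9 windows, 6 held a GC box, against 35.7% of all 32851 windows in the table. The consensus site of the GLI factors, TGGGTGGTC, was found on neither strand of any of the 9 windows, and allowing any base in its middle (TGGGNGGTC) added none. These letters are rare in such windows, with 0.253% of all windows holding the first form and 0.977% the second, which includes the first. The sequence TATAAA was in 0 of the 9 windows, against 13.6% of all, and CCAAT was in 3, against 37.4%.

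The windows lay above the median GC content of all windows apart from those of *Gpr161*, which do not hold its annotated start. *Sufu* was the lowest of those above the median, at 56.3%. The *Ptch1* window had the highest GC content at 76.3%, followed by *Hhip* at 73.7% and *Gli3* at 71.0%, against a median of 52.7% over all windows. The other end was held by the *Gpr161* windows with 44.0% and 45.7%. *Gli3* and *Ptch1* also had the highest CpG ratios. *Gli3* had 39 CpG and *Ptch1* 47, giving ratios of observed to expected CpG of 1.12 and 1.09, where the median of all windows was 0.384. *Hhip*, with 30 CpG and a ratio of 0.747, lay within the quartiles of all windows, and *Gli2* had a ratio of 0.830. Of the 9 windows, 7 lay above the median of all windows in GC content and 7 in the CpG ratio. A high GC content went with high as well as low levels of RNA, since *Gli3* ranked 2 and *Hhip* ranked 9 of the 9 genes by the level described next.

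**Figure D1:**
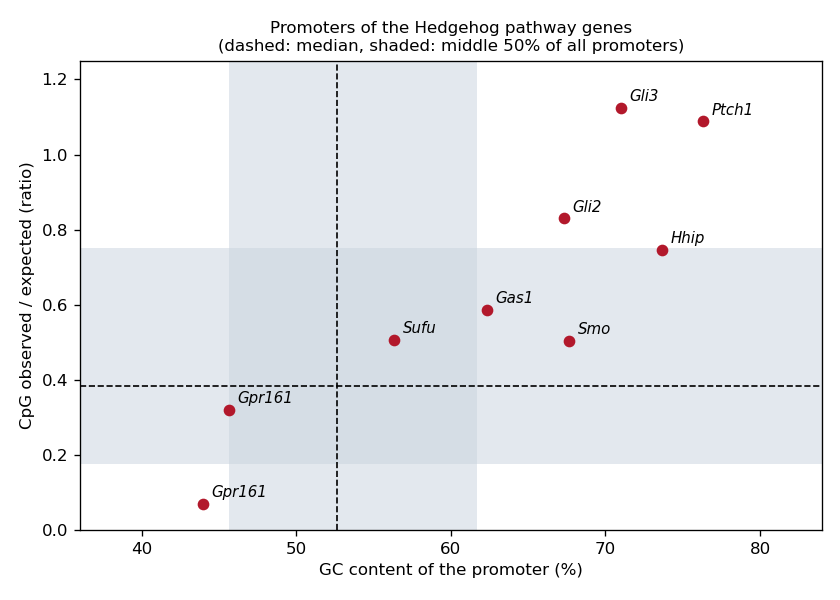
GC content in percent on the x axis and the ratio of observed to expected CpG on the y axis for the 9 promoter windows of 8 Hedgehog pathway genes, with each point 1 window. Dashed lines give the medians of all windows (52.7% and 0.384) and shading spans their quartiles. *Ptch1* and *Gli3* lie at the upper right and both *Gpr161* windows below both medians.

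To compare genes, the mean normalized count was divided by the length of all exons of the gene in kilobases, which gives the level used from here on. Over the 20122 genes with an annotated length the median level was 28.6 per kb, with quartiles of 3.14 and 130 per kb. The 9 pathway genes had a median of 144 per kb, and 6 of them lay above the median of all genes. Their levels ran from 0.309 per kb for *Hhip* to 561 per kb for *Gas1*. The order from high to low was *Gas1*, *Gli3*, *Smo*, *Gpr161*, *Sufu*, *Gli2*, *Ptch1*, *Gli1* and *Hhip*. No spread between samples was at hand, so it was not tested which neighbors in this order differ. The closest pair was *Gli3* and *Smo*, with a ratio of 1.01, and the widest gaps lay between *Ptch1* and *Gli1* and between *Gli1* and *Hhip*, at ratios of 9.84 and 9.23.

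**Figure D2:**
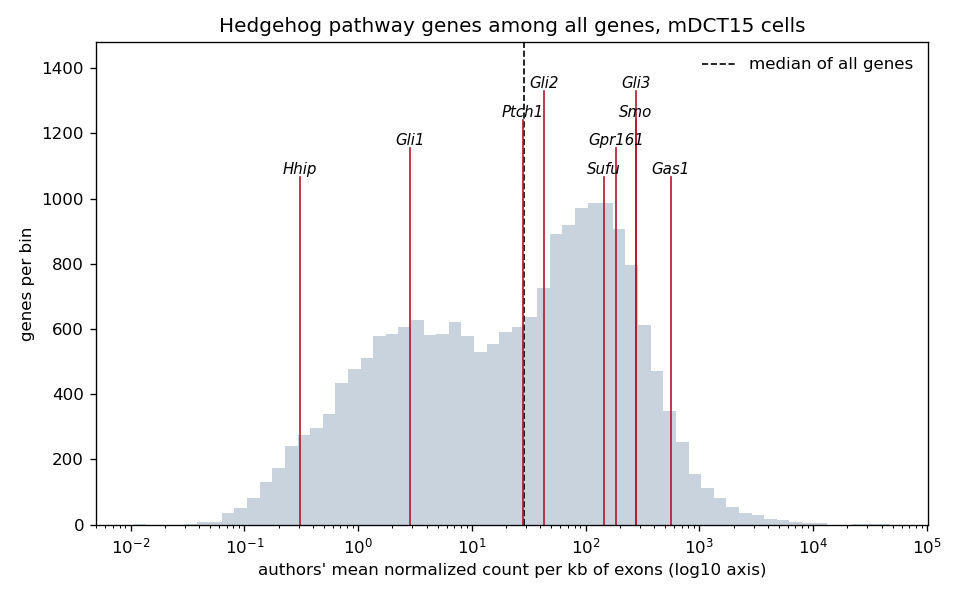
Number of genes (y axis) by the authors' mean normalized count per kb of exons (x axis, log10) for 20122 genes, with red lines at the 9 Hedgehog pathway genes and a dashed line at the median of all genes, 28.6 per kb. *Hhip* and *Gli1* lie in the lower part of the distribution, *Ptch1* and *Gli2* near the median, and the other 5 genes above the upper quartile of 130 per kb.

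Among the genes that receive the ligand, the co-receptor stood far above the receptor. *Gas1* (ENSMUSG00000052957, chromosome 13 from 60322219 to 60325179 on GRCm39, minus strand) encodes a membrane-anchored protein that binds Hedgehog ligands and aids their signaling. Its mean normalized count was 1661 over 2.96 kb in 1 exon, a level higher than that of 95.6% of all genes. On the opposite strand, *Gm48488* overlaps 19.9% of its exon bases, and its part in the count was not tested. *Ptch1* (ENSMUSG00000021466, chromosome 13 from 63656142 to 63721412, minus strand), the main receptor and itself a target, had a mean normalized count of 413 over 14.7 kb. Its level of 28.0 per kb was close to the median of all genes, well under the 561 per kb of *Gas1*. *Hhip* (ENSMUSG00000064325, chromosome 8 from 80692480 to 80784658, minus strand) encodes a membrane protein that captures ligand and dampens the signal. Its mean normalized count was only 3.31, so that an average library held few reads of it, and 3.83% of all genes had a lower level per kb. *Ptch1* exceeded *Hhip* by a ratio of 90.8 per kb.

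*Smo* and *Gpr161*, whose proteins act at the cilium, were well above the median of all genes. *Smo* (ENSMUSG00000001761, chromosome 6 from 29735407 to 29762532, plus strand) encodes Smoothened, the seven-pass protein that Patched restrains. Its mean normalized count was 2442 and its level 276 per kb, higher than that of 88.4% of all genes and 9.86 times that of *Ptch1*. On the same strand, *Gm13717* overlaps 4.13% of the exon bases of *Smo*, and its part in the count was not tested. *Gpr161* (ENSMUSG00000040836, chromosome 1 from 165108568 to 165154316, plus strand) encodes an orphan receptor of the cilium that raises cAMP and keeps the pathway off. Its mean normalized count was 1576 and its level 187 per kb, at percentile 82.0 of all genes. Its level was 6.67 times that of *Ptch1*.

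The GLI factors differed widely among themselves. *Gli3* (ENSMUSG00000021318, chromosome 13 from 15637809 to 15904611, plus strand), the chief source of the repressor, was counted at a mean of 2799 normalized counts, which is a level of 280 per kb, at percentile 88.6 of all genes. *Gli2* (ENSMUSG00000048402, chromosome 1 from 118761858 to 118982598, minus strand), the chief activator, was counted at a mean of 346, a level of 43.0 per kb, at percentile 55.2. *Gli1* (ENSMUSG00000025407, chromosome 10 from 127165751 to 127177865, minus strand) acts only as an activator and is a common readout of the active pathway. Its mean normalized count was 14.3 and its level 2.85 per kb, at percentile 23.7. The level of *Gli3* was thus 6.51 times that of *Gli2* and 98.2 times that of *Gli1*. *Gli1* shares 7.34% of its exon bases with genes on the opposite strand, *Arhgap9* and *Gm47200*. *Sufu* (ENSMUSG00000025231, chromosome 19 from 46385324 to 46477243, plus strand) encodes the protein that binds the GLI factors and keeps them inactive. Its mean normalized count was 1334 and its level 144 per kb, at percentile 77.2 and 0.516 times that of *Gli3*.

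The length used to scale a gene moved some of these levels. By the longest transcript, which is 5346 bases for *Smo* against 8832 bases of all its exons, *Smo* reached 457 per kb and passed *Gli3* at 310 per kb. *Sufu* rose in the same way from 144 to 289 per kb and passed *Gpr161* at 206 per kb. *Gas1* stayed at the top with 561 per kb on both scales. *Gli2*, *Ptch1*, *Gli1* and *Hhip* were the lowest on both, in the same order. *Ptch1* lay just below the median of all genes by all exons and above the median, at 39.8 per kb, by the longest transcript. Without any correction for length *Gli3* came first, and *Ptch1* stood above *Gli2*.

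**Figure D3:**
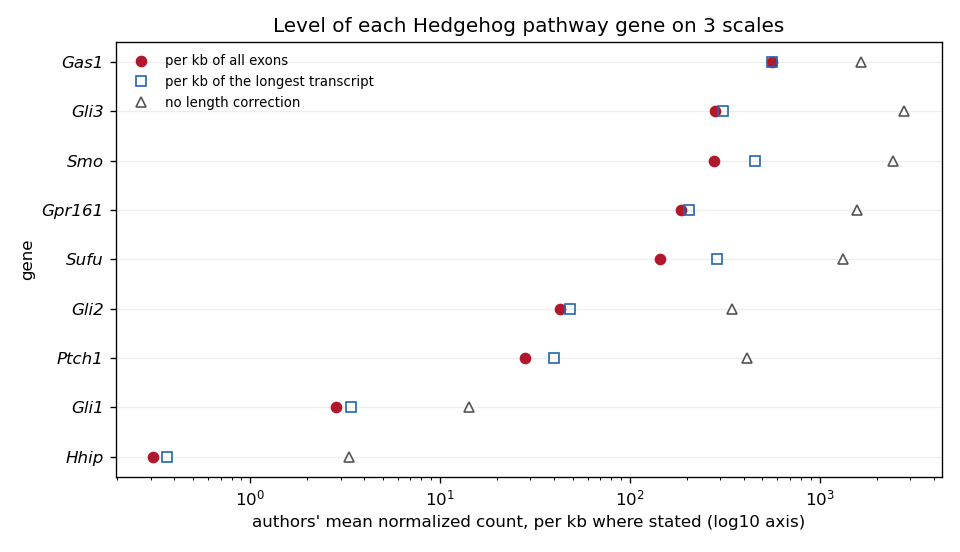
The 9 Hedgehog pathway genes (y axis) with their level on 3 scales (x axis, log10): the authors' mean normalized count per kb of all exons (filled circles), per kb of the longest transcript (open squares) and without a length correction (open triangles). No error can be drawn for a mean over all samples. *Gli1* and *Hhip* are lowest on each scale, and *Smo* and *Sufu* shift most between the first pair of scales.

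The genes around these members were described with lists written by role. Of the 58 listed genes 53 were analysed, and 47 of these lay above the median of all genes. A listed gene was not analysed when its name was missing from the deposited genes or it had no annotated exon length. Such a gene has no level here, and which of these reasons applied is not given. With only genes of a mean normalized count of at least 10 ranked, that median rose to 80.9 per kb and 30 of the 53 lay above it. The group of ligands and genes of their release had the lowest median of the lists, at 18.4 per kb, with only 1 ligand analysed. *Ihh*, the Indian hedgehog ligand, was close to unmeasured, with a mean of 2.35 normalized counts and a level of 0.770 per kb, while *Shh* and *Dhh* were not analysed here. For the release of ligand, *Disp1*, which exports it, had 61.4 per kb, *Scube3*, a secreted carrier, 153 per kb and *Hhat*, the acyltransferase that attaches palmitate to it, 18.4 per kb. *Scube2* had 0.499 per kb, and *Scube1* was not analysed here. Of the 5 analysed genes of this group 2 lay above the median of all genes, and 1 with the minimum mean of 10.

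The co-receptors and glypicans covered a wide range. *Cdon*, a co-receptor that acts beside *Gas1*, had a level of 305 per kb, 10.9 times that of *Ptch1*. The related co-receptor *Boc* had 19.6 per kb, 15.6 times lower than *Cdon*. *Lrp2* (megalin) and the glypican *Gpc4* were the highest with 528 and 481 per kb, while the glypicans *Gpc6* and *Gpc3* had 47.8 and 14.3 per kb. In all, 4 of the 6 genes of the group lay above the median of all genes, and 3 with the minimum mean of 10.

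All genes on the lists of intracellular parts, which leave out the GLI factors, lay above the median of all genes. Not all of these genes did so when genes with low counts were left out of that median. *Gli1*, an intracellular member outside these lists, lay below the median of all genes at 2.85 per kb. All 15 genes of Smoothened regulation and ciliary handling lay above the median of all genes, with a median of 120 per kb. The highest were *Grk2* (438 per kb), the kinase that phosphorylates Smoothened, *Tulp3* (202 per kb), which brings *Gpr161* protein into the cilium, and *Evc2* (180 per kb), part of a complex that relays Smoothened activity. The lowest were *Iqce* (69.6 per kb), *Kif7* (63.1 per kb), a kinesin at the ciliary tip, and *Arrb1* (54.5 per kb). All 17 genes listed as kinases, ligase parts and scaffolds also lay above it, with a median of 277 per kb. When only genes with a mean normalized count of at least 10 were ranked, 10 of the 15 and 13 of the 17 did. *Prkaca* and *Prkar1a*, the catalytic and regulatory subunits of protein kinase A, which marks GLI factors for cutting, had 1192 and 729 per kb. *Cul3*, the scaffold of the ligase that degrades full-length GLI, had 620 per kb. *Stk36* (49.7 per kb), *Btrc* (34.8 per kb) and *Iqcb1* (33.8 per kb) were the lowest there. The place of *Iqcb1* in that list rests on the choice of genes by hand and was not tested. These genes serve several pathways.

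Among other genes known as targets, 9 of the 10 analysed lay above the median of all genes, with a median of 65.5 per kb, and 3 did with the minimum mean of 10. *Foxm1* and *Cdk6*, both genes of cell division, were highest at 528 and 250 per kb, and *Foxf1*, a forkhead factor, followed at 130 per kb. *Sfrp1* had 41.9 per kb, *Bcl2* 33.4 per kb and *Mycn* 18.0 per kb, while *Foxl1* and *Foxc2* were not analysed here. All 10 lay above *Gli1* and *Hhip*, targets that are also part of the pathway. *Ptch1*, a further such target, lay just below the median of all genes by all exons. The 9 genes above that median therefore lay above *Ptch1* by definition. Such target genes are known to respond to other signals as well.

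**Figure D4:**
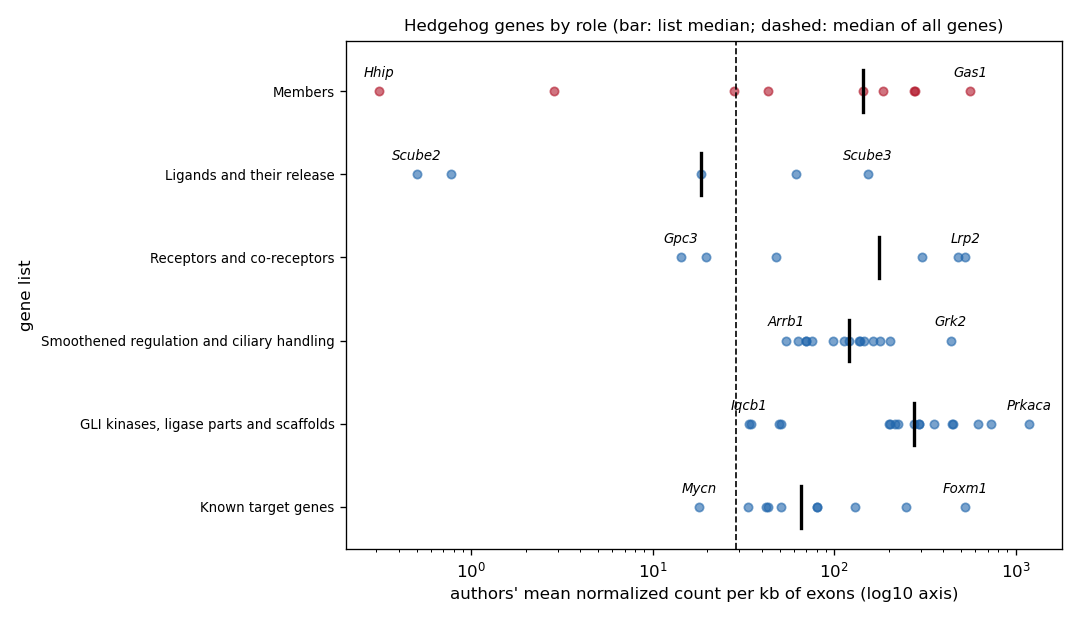
The authors' mean normalized count per kb of exons (x axis, log10) for the 9 pathway genes and 5 lists of other Hedgehog genes (y axis), 1 point per gene, with a bar at each list's median and the lowest and highest gene named. The dashed line is the median of all genes, 28.6 per kb. The intracellular lists lie to its right throughout, whereas ligands, receptors and the 9 genes themselves lie on both sides.

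The labelled cell type was checked by its markers. Of 9 genes listed for the distal convoluted tubule 4 were analysed. *Sgk1* had 114 per kb, *Wnk4* 94.5 per kb, *Trpm6* 3.72 per kb and *Klhl3* 0.772 per kb. The defining transporter *Slc12a3* and *Pvalb*, *Trpv5*, *Calb1* and *Emx1* were not analysed here. As in the lists by role, their names were missing from the deposited genes or they had no annotated exon length. Of 6 epithelial genes 3 were analysed, with the kidney cadherin *Cdh16* at 1125 per kb, *Epcam* at 44.6 per kb and the keratin *Krt8* at a mean normalized count of 0.980, while *Cdh1*, *Krt18* and *Krt19* were not analysed here. The check of the cell type is therefore partial. Genes of the proximal tubule were mixed, with *Aqp1* at 3815 per kb, *Lrp2* at 528 per kb and *Cubn* at 11.3 per kb. *Slc5a2* had 0.958 per kb and *Slc34a1* 0.322 per kb. *Aqp1* and *Lrp2* lay at percentiles 99.7 and 95.2 of all genes, above *Sgk1* at percentile 72.6. *Sgk1* was the highest analysed gene of the distal convoluted tubule list, and its specificity for that segment was not tested. Of the 6 stromal genes, 3 lay above the median of all genes, with *Vim* at 3672 per kb, *Acta2* at 34.2 per kb and *Col1a1* at 30.5 per kb, while *Pdgfra*, *Pdgfrb* and *Col1a2* had at most 0.553 per kb. The collecting duct genes analysed were near zero, with *Aqp3* at 1.06 per kb and *Scnn1g* at a mean normalized count of 0.618. *Pecam1* of endothelium had 0.468 per kb, and *Cd68* and *Ptprc* of leukocytes 30.6 and 0.286 per kb. *Pkd1*, the edited gene, and its partner *Pkd2* had 182 and 282 per kb over both genotypes, which does not test the edit.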

How the data were processed

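RNA of 3 Pkd1-/- and 3 wild type mDCT15 samples, grouped by title, had been sequenced after depletion of ribosomal RNA. Per the labels, the submitters used Trim Galore 0.4.5 for trimming, STAR 2.7.5a for mapping to GRCm39 and HTSeq 0.11.0 for counts per gene. In the deposited table the authors give a mean normalized count, a signal over all samples that DESeq2 1.22.0 in R 3.5.3 had scaled by size factors. Its other columns hold the authors' own comparison of the genotypes (fold changes, standard errors, statistics and p-values) and were not used. The means add up to 16746088, and depth per sample is unknown. The methods state a minimum of 5 counts per sample, yet 5385 genes (26.1%) had a mean under 5.

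Levels were means divided by kilobases of exons in GENCODE M39 (Ensembl release 116, later than the authors' annotation), which held 20122 (97.6%) of the identifiers. A percentile is the percent of these genes with a lower level. Promoter windows came from RefSeq (GRCm38.p6) and were placed on GRCm39 by exact match. Motifs were counted on both strands. Lengths, percentiles and motif counts were checked on simulated data. Python 3.11.15, pandas 2.3.3 and matplotlib 3.10.9 were used. The members and lists were chosen with earlier results of these data known. The genes named were all members, the highest and lowest 3 of each list, the ligands, *Pkd1*, *Pkd2*, and of the markers the highest of each cell type and those with a mean under 1. Markers beyond these were named after their values were seen. The count test planned for values per sample was not run, and no test was made. One gene of the lists is not reported here. The alternatives tried were other gene lengths and other minimum means.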

Additional observations from a re-analysis of the deposited data

How the results depend on the processing

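Of the 9 pathway genes, 6 lay above the median of all genes, and 5 to 7 did so with the longest transcript, without a length correction or when only genes with a minimum mean of 1 or 10 were ranked. Of the other Hedgehog genes analysed 47 lay above it, and 30 did so when the median was taken over genes whose mean reached 10, because that limit raises the median; under the other alternatives 44 to 48 did. In the order of the 9 genes, 5 kept their place with the longest transcript and 4 without a length correction. No paired analysis was possible because the values used are means over all samples. For the same reason the count models, filters on counts and the omission of single replicates were not run. The identity of the GLI proteins was also not run. Precision cannot be given for any level, and it is least for *Hhip* and *Gli1*, with means of 3.31 and 14.3.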
